A study of Mus musculus with 2 samples.

Results

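The genes described here are the potassium channel genes of the mouse, taken as every gene of the deposited list whose symbol starts with Kcn. This gave 99 genes of 31053. They comprise pore-forming subunits, their auxiliary subunits and a few regulators and noncoding genes named after a channel locus, and they include Kcnk3, a channel studied in brown fat. They were followed in nuclei of brown adipose tissue from C57BL/6 mice in 2 conditions. The 1cyc group had been exposed once to acute cold and was sampled 4 days later. The TN group was kept at thermoneutrality, a housing temperature at which mice need no extra heat production. Each condition was 1 library of DAPI-sorted nuclei pooled from 5 mice, both groups shared the strain and tissue, and no age was given. Differences between the conditions therefore have no replicate check, and an effect of the condition cannot be told apart from one of its library.

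Potassium channels let potassium ions leave or enter cells and so set the membrane voltage. Two-pore channels such as Kcnk3 carry a steady leak current, voltage-gated channels open when the membrane depolarises, and inward rectifiers and ion-activated channels respond to voltage, nucleotides, calcium or sodium. In mouse brown adipocytes, Kcnk3 encodes the acid-sensitive leak channel TASK, which is known for limiting adrenergic depolarisation and calcium entry. Brown adipocytes burn fuel through Ucp1 under adrenergic drive, and the capillaries, pericytes and progenitors around them have channels of their own.

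The 1cyc library held 4321 barcodes and 2469900 UMIs (molecular identifiers, each counting 1 captured molecule), and the TN library 2551 barcodes and 2745808 UMIs. The libraries stood apart in quality. The median barcode held 378 UMIs in 1cyc and 800 in TN, the shallowest deposited barcode 262 and 500 UMIs, and the median share of mitochondrially encoded (mt-) UMIs was 22.1% in 1cyc and 4.76% in TN. Nuclei under 20% mt- UMIs numbered 2046 in 1cyc and 2467 in TN, and 6 barcode sequences occurred in both libraries. Nuclei were assigned to a class by 3 or more UMIs of its markers. The rule gave 1593 adipocyte nuclei in 1cyc and 1926 in TN (Pparg, Acsl1 and Ppara), 63 and 169 fibroblast nuclei (Pdgfra, Dcn and Lama2), 27 and 123 endothelial nuclei (Ptprb and Flt1), 7 and 16 mural nuclei (Postn and Trpc6) and 23 and 46 skeletal muscle nuclei (Ttn and Neb). The rule let a nucleus enter several classes, and 46 adipocyte nuclei of 1cyc and 123 of TN did so. Lists of further markers that the rule did not use were each highest in the class of their own type. For adipocyte nuclei that list summed to 4469 CPM (counts per 1000000 UMIs of the class) in 1cyc and 3227 CPM in TN. The mural class had the pericyte list at 9740 CPM in 1cyc and 8007 CPM in TN, above the smooth muscle list at 356 and 104 CPM, so the values named mural here are those of nuclei led by pericyte markers. Intervals in parentheses are 95% intervals that cover counting error only, not the spread between mice or preparations.

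Of the 99 genes, 27 had no UMI in any barcode of either library, 33 had 1 to 9, 22 had 10 to 49 and 17 had 50 or more. In adipocyte nuclei of both libraries together, 10 genes reached 50 UMIs. The remaining 89 comprised 16 genes with 10 to 49 UMIs, 38 with 1 to 9 and 35 with none, where a count of 0 allows up to 2.30 CPM in 1cyc and 1.59 CPM in TN. Just inside this minimum were Kcnd2 with 76 UMIs and Kcnma1 with 54. Just outside were Kcnrg with 47, Kcnk2 with 37 and Kcnip4 with 36.

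Summed over all 99 genes, transcripts made up 1182 CPM of adipocyte nuclei in 1cyc and 1107 CPM in TN, a ratio of 1.07 (0.999 to 1.14). Without the noncoding Kcnq1ot1 the sum was 783 CPM in 1cyc and 720 CPM in TN (ratio 1.09, 1.00 to 1.18). Without Kcnk3 the ratio was 0.934 (0.865 to 1.01). The noncoding genes stood at 401 CPM in 1cyc and 387 CPM in TN. Two-pore channels stood at 357 CPM in 1cyc and 222 CPM in TN (ratio 1.61, 1.41 to 1.84). This difference was that of Kcnk3, since the other 13 two-pore genes had 31 UMIs in 1cyc and 45 in TN (ratio 1.00, 0.612 to 1.62). Voltage-gated subunits stood at 315 CPM in 1cyc and 374 CPM in TN (ratio 0.844, 0.746 to 0.955). Without Kcnc2 the other 39 voltage-gated genes had 282 CPM in 1cyc and 284 CPM in TN (ratio 0.993, 0.868 to 1.14). Ion-activated channels had 46.8 CPM in 1cyc and 57.1 CPM in TN, and auxiliary subunits 32.2 and 39.6 CPM. Inward rectifiers had 17 UMIs in 1cyc and 28 in TN, and the ratio intervals of these 3 families included 1. A UMI of any channel gene was found in 39.5% of 1cyc and 40.8% of TN adipocyte nuclei. These shares were not thinned to equal depth, and the median adipocyte nucleus held 625 UMIs in 1cyc and 795 in TN.

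Of the 10 measured genes, 2 were at least 1.5-fold higher in 1cyc, Kcnk3 among them, against 9.68% of all 6852 genes with the same minimum. One gene, Kcnc2, was at least 1.5-fold lower, against 9.62% of all genes. With 10 genes, each count is within 1 or 2 genes of these shares, and nothing is read from it. The number lower was 2 under 7 of 12 alternatives, 4 of 20 genes at a minimum of 20 UMIs and 14 of 46 with no minimum. The shares of all genes under these alternatives are not given, so these counts are not set against 9.62%. The median log2 ratio of the 10 genes was -0.18, with 4 above and 6 below a ratio of 1, beside 0.05 over all 6852 genes, of which 3812 lay above.

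**Figure D1:**
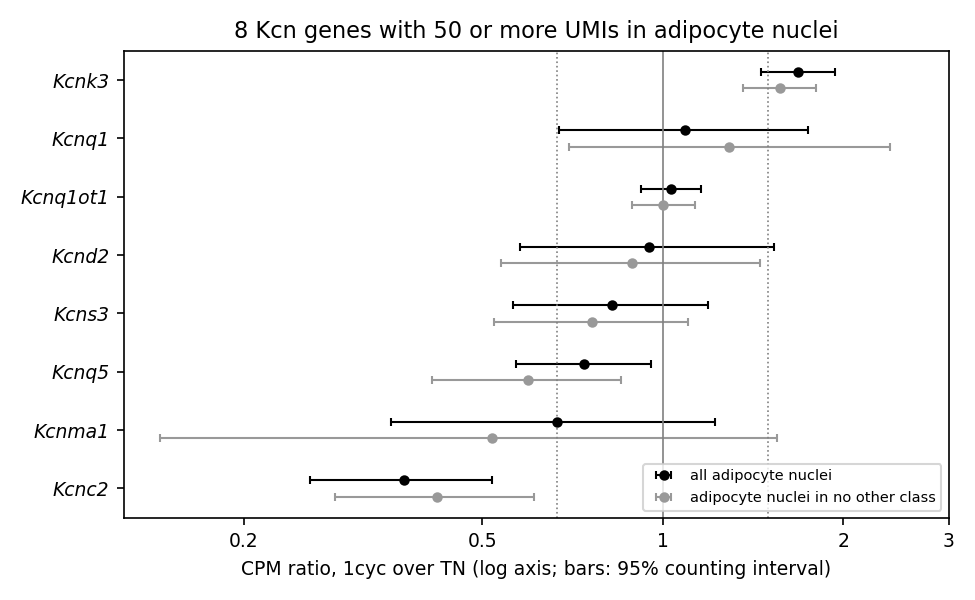
CPM ratio of 1cyc over TN for 8 of the 10 measured Kcn genes in adipocyte nuclei, on a log axis, with 95% counting intervals; black points use all adipocyte nuclei, grey points those in no other class, and dotted lines mark 1.5-fold. Kcnk3 (1.68) lies above the upper line and Kcnc2 (0.370) below the lower one.

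Kcnk3 (chr5:30588170-30625271, plus strand, mm10) was counted 434 times in 1cyc adipocyte nuclei, or 333 CPM (303 to 366). In TN adipocyte nuclei it was counted 375 times, or 198 CPM (179 to 219). The ratio was 1.68 (1.46 to 1.94) over all adipocyte nuclei and 1.57 (1.36 to 1.80) in those of no other class. It was therefore higher in the 1cyc library by more than counting error. Thinned to 500 UMIs per nucleus, 14.5% of 1cyc nuclei (12.3 to 16.9; 137 of 948) and 9.66% of TN nuclei (8.37 to 11.1; 186 of 1926) held a Kcnk3 UMI. Thinning left out 645 of the shallower 1cyc nuclei and none of TN. Unthinned, the shares were 20.7% in 1cyc and 16.5% in TN. With adipocyte nuclei taken at 5 or more marker UMIs, the thinned shares were 14.7% in 1cyc and 12.3% in TN, with intervals that overlapped. Nuclei with 3 or more Kcnk3 UMIs numbered 24 in 1cyc and 7 in TN.

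The Kcnk3 ratio was not the same in every stratum of adipocyte nuclei that met no other class rule. It was 1.76 (1.49 to 2.09) among nuclei under 5% mt- UMIs and 1.01 (0.742 to 1.37) among nuclei at 5 to 20%, where 66 UMIs in 1cyc and 135 in TN were counted. It was 1.57 (1.25 to 1.97) among nuclei of 500 to under 1000 UMIs and 1.72 (1.40 to 2.12) among deeper ones. Nuclei with a Ucp1 UMI gave 1.45 (1.00 to 2.11, on 104 UMIs in 1cyc and 43 in TN) and those without 1.53 (1.31 to 1.79). Higher Kcnk3 in 1cyc was thus seen at both depths compared and without a Ucp1 UMI, and not among nuclei of 5 to 20% mt- UMIs. With a Ucp1 UMI the interval reached down to 1.00. The depths compared leave out 637 1cyc nuclei under 500 UMIs (Kcnk3 at 290 CPM on 67 UMIs), a depth without TN barcodes. The part of mt- content in the difference was not tested further. Within each library, Kcnk3 stood higher in nuclei with a Ucp1 UMI than in those without, by 1.30-fold in 1cyc (1.03 to 1.63) and 1.37-fold in TN (0.976 to 1.89), and the TN interval included 1.

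**Figure D2:**
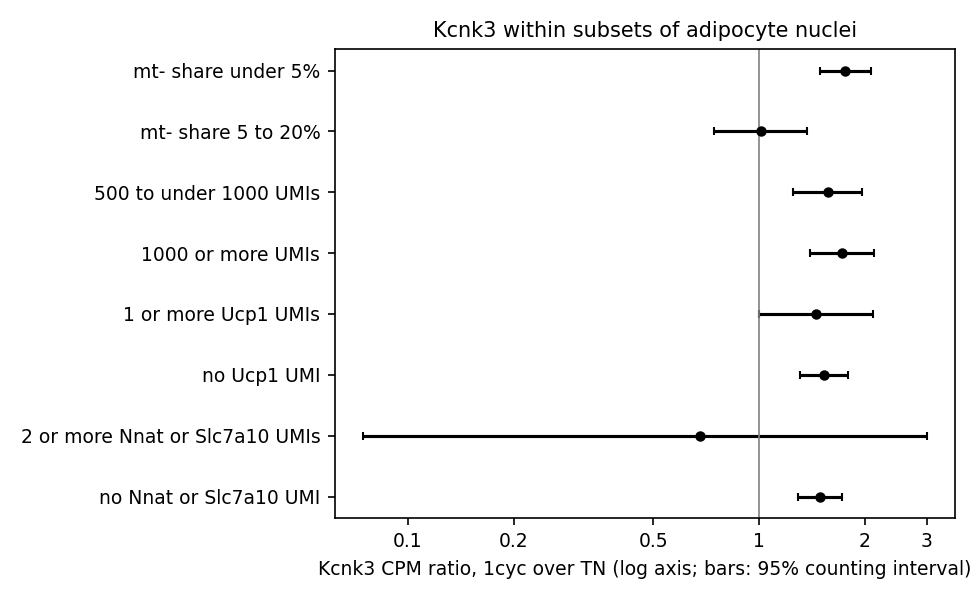
CPM ratio of Kcnk3, 1cyc over TN, on a log axis with 95% counting intervals, within subsets of adipocyte nuclei that met no other class rule. The ratio was 1.76 under 5% mt- UMIs and 1.01 at 5 to 20%, and the subset with 2 or more Nnat or Slc7a10 UMIs rests on 2 UMIs in 1cyc and 13 in TN.

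Among the classes, the Kcnk3 level was highest in adipocyte nuclei in both libraries, although 0 UMIs in 1cyc mural nuclei still allow 356 CPM. Fibroblast nuclei had 104 CPM in 1cyc (8 UMIs) and 33.6 CPM in TN (8 UMIs), and endothelial nuclei 32.0 CPM (1 UMI) and 21.0 CPM. Adipocyte nuclei exceeded fibroblast nuclei 3.21-fold in 1cyc (1.61 to 7.48) and 5.91-fold in TN (2.97 to 13.8); these intervals treat the classes as separate although 14 nuclei of 1cyc and 40 of TN entered both. The unthinned share of nuclei with a Kcnk3 UMI was 9.52% of fibroblast nuclei in 1cyc and 4.73% in TN, at median depths of 1186 and 1191 UMIs, below the adipocyte shares at median depths of 625 and 795 UMIs. Thinned to 500 UMIs, the fibroblast shares were 10.2% in 1cyc (3.82 to 20.8) and 1.78% in TN (0.368 to 5.10), so the adipocyte and fibroblast intervals overlapped in 1cyc and not in TN. In fibroblast nuclei the 1cyc over TN ratio was 3.09 (1.01 to 9.46), on 8 UMIs in each library.

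**Figure D3:**
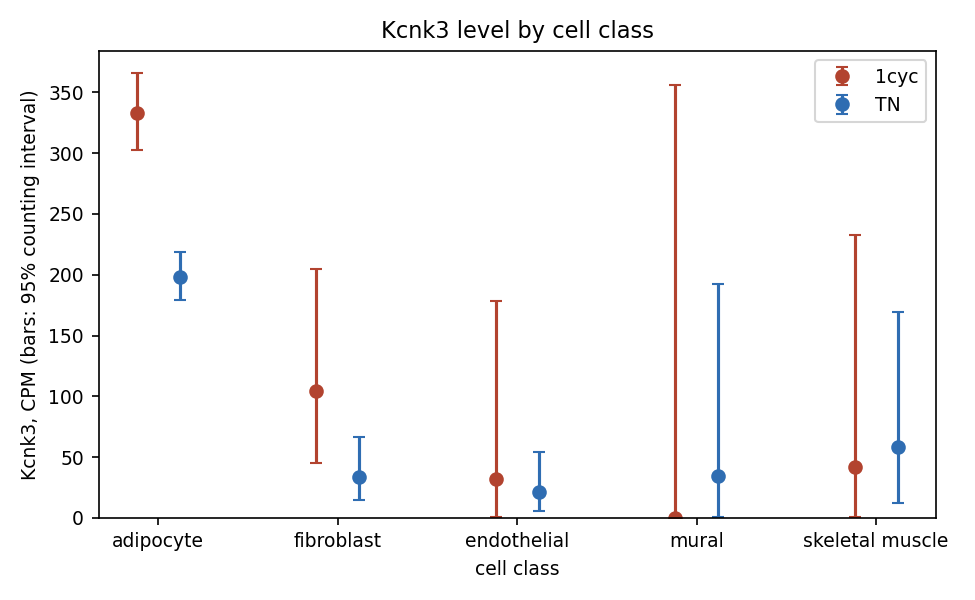
Kcnk3 level in CPM by cell class, 1cyc left of TN, with 95% counting intervals; a class without a UMI has a bar up to the level of 3 counts. Adipocyte nuclei stand at 333 CPM in 1cyc and 198 CPM in TN, and the mural and muscle bars are wide because those classes hold 7 to 46 nuclei per library.

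Kcns3 encodes an electrically silent subunit that assembles with delayed-rectifier pore subunits and changes their gating. Kcns3 had 47 UMIs in 1cyc adipocyte nuclei and 83 in TN, or 36.1 CPM and 43.9 CPM, with a ratio of 0.822 (0.562 to 1.19). No Kcns3 UMI was found in fibroblast nuclei of either library. Against 3 counts, adipocyte nuclei of TN were 3.49-fold higher than fibroblast nuclei, and the counting interval, taken on 0 UMIs, began at 2.77. In 1cyc the level of 36.1 CPM was below the 38.9 CPM that a count of 0 allows, so a difference was not detectable at this depth.

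Kcnc2, a fast-repolarising voltage-gated subunit, was the measured channel gene with the lowest ratio. It had 43 UMIs in 1cyc adipocyte nuclei and 169 in TN, or 33.0 CPM (23.9 to 44.5) and 89.3 CPM (76.4 to 104). The ratio was 0.370 (0.258 to 0.519), and 0.420 in nuclei of no other class. It was 0.494 (0.289 to 0.821) under 5% mt- UMIs and 0.450 (0.239 to 0.794) at 5 to 20%. Kcnc2 was higher in fibroblast and endothelial nuclei than in adipocyte nuclei. Endothelial nuclei had 256 CPM in 1cyc and 320 CPM in TN, and fibroblast nuclei 143 and 201 CPM. The 1cyc over TN ratio was 0.799 (0.330 to 1.68) in endothelial and 0.709 (0.332 to 1.38) in fibroblast nuclei. These intervals included 1 and also overlapped that of adipocyte nuclei. Of the endothelial nuclei, 16 of 27 in 1cyc and 71 of 123 in TN were also adipocyte nuclei. In endothelial nuclei of no other class, Kcnc2 had 494 CPM in 1cyc on 5 UMIs and 337 CPM in TN on 21. Marker lists of 5 other cell types were also lower in 1cyc adipocyte nuclei, and 3 were higher. The endothelial list summed to 279 CPM in 1cyc and 670 CPM in TN, the fibroblast list to 211 and 317 CPM, the pericyte list to 165 and 313 CPM, the Schwann list to 79.8 and 116 CPM, and the erythroid list to 5000 and 23574 CPM. The skeletal muscle list summed to 51.4 CPM in 1cyc and 39.6 CPM in TN, the macrophage list to 48.4 and 41.8 CPM, and the smooth muscle list to 17.7 and 15.9 CPM. In TN fibroblast nuclei, where Kcnc2 was also counted, the erythroid list stood at 37048 CPM, beside 156 CPM in 1cyc. The part of these lists in the Kcnc2 difference was not tested.

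Kcnq genes encode slowly gating voltage-dependent channels. In adipocyte nuclei, the 1cyc over TN interval excluded 1 for Kcnq5 and included it for Kcnq1. Kcnq5 had 92 UMIs in 1cyc and 181 in TN, a ratio of 0.738 (0.568 to 0.954). In nuclei of no other class it had 46 and 104 UMIs and a ratio of 0.596 (0.412 to 0.851), past the 1.5-fold limit. Within those nuclei the ratio was 1.23 (0.588 to 2.45) at 500 to under 1000 UMIs and 0.208 (0.108 to 0.370) at 1000 or more. It was 0.465 (0.262 to 0.797) under 5% mt- UMIs and 0.978 (0.589 to 1.59) at 5 to 20%, so the lower level was not seen in every stratum. Up to 21 Kcnq5 UMIs in 1cyc and 23 in TN came from 1 nucleus. Over all adipocyte nuclei, 48 of 1593 in 1cyc and 54 of 1926 in TN held a Kcnq5 UMI, or 3.01% and 2.80%. Thinned to 500 UMIs, the shares were 2.43% in 1cyc (1.54 to 3.62) and 1.82% in TN (1.27 to 2.52). The share of nuclei with Kcnq5 was thus not lower in 1cyc, and the ratio intervals treat UMIs of 1 nucleus as independent counts. Kcnq1 had 33 UMIs in 1cyc and 44 in TN (ratio 1.09, 0.672 to 1.75). Kcnq1ot1, an imprinted noncoding RNA, lies antisense within Kcnq1, and because use of strand in the counting is not given in the sources used here, reads of these genes cannot be told apart. It had 520 UMIs in 1cyc and 732 in TN, 399 and 387 CPM, with a ratio of 1.03 (0.920 to 1.16). Kcnd2, an A-type channel, had a ratio of 0.947 (0.577 to 1.53) on 30 UMIs in 1cyc and 46 in TN. Kcnma1, the large-conductance calcium-activated channel, had 17 UMIs in 1cyc and 37 in TN and a ratio of 0.667 (0.352 to 1.22). In nuclei of no other class it had 5 UMIs in 1cyc and 13 in TN (ratio 0.518, 0.145 to 1.55), so most of its adipocyte UMIs came from nuclei that also met another class rule.

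Some channel genes stood at another level in adipocyte nuclei with transcripts of white adipocytes. Nnat and Slc7a10 mark these nuclei, and 26 nuclei of 1cyc and 129 of TN held 2 or more of their UMIs, against 1481 of 1cyc and 1569 of TN with none. Among 8 Kcn genes with 50 UMIs in these subsets, 2 were at least 2-fold higher with Nnat or Slc7a10 in both libraries, Kcns3 among them, against 5.94% of 6178 genes. Kcnk3 was at least 2-fold lower in both, against 3.80%. The other Kcn genes tested met neither limit. The nuclei with these transcripts were deeper, with 42515 UMIs in 26 nuclei of 1cyc and 187946 in 129 of TN. Those without held 1176935 UMIs in 1481 nuclei of 1cyc and 1399255 in 1569 of TN. The part of depth in these differences was not tested. Kcns3 had 188 CPM in nuclei with these transcripts and 31.4 CPM in those without in 1cyc, a ratio of 5.99 (2.41 to 13.1). In TN it had 138 CPM with and 34.3 CPM without, a ratio of 4.03 (2.40 to 6.63). Kcnk3 had 47.0 CPM with and 355 CPM without in 1cyc, a ratio of 0.132 (0.0160 to 0.481) that rests on 2 UMIs in the nuclei with these transcripts. In TN it had 69.2 CPM with and 239 CPM without, a ratio of 0.290 (0.153 to 0.502). Kcnc2 had 0 UMIs with Nnat or Slc7a10 in 1cyc and 1 in TN, where the ratio was 0.0653 (0.00164 to 0.371). Kcnq1ot1 did not separate the subsets beyond counting error, with ratios of 1.10 (0.649 to 1.77) in 1cyc and 0.859 (0.651 to 1.12) in TN. The white adipocyte list, which holds both marker genes, summed to 563 CPM in 1cyc and 1201 CPM in TN over all adipocyte nuclei.

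**Figure D4:**
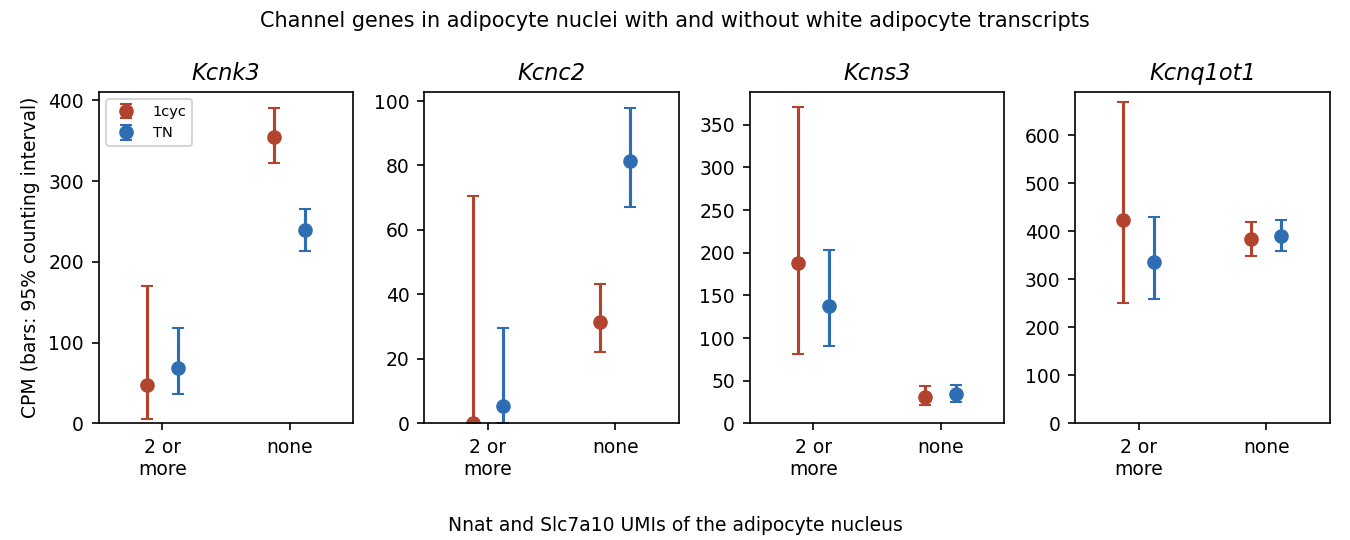
Level in CPM of 4 Kcn genes in adipocyte nuclei with 2 or more Nnat or Slc7a10 UMIs and with none, 1cyc left of TN in each pair, with 95% counting intervals and, at 0 UMIs, a bar up to the level of 3 counts. Kcns3 stands higher and Kcnk3 lower in nuclei with these transcripts in both libraries.

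Channel genes were also compared between adipocyte nuclei and the other classes. Of 12 Kcn genes with 50 UMIs in adipocyte and fibroblast nuclei together, 1 was at least 2-fold higher in adipocyte nuclei of both libraries (Kcnk3), against 11.4% of 7255 genes. Another 3 were at least 2-fold lower, against 9.17%, and 8 met neither limit. With 12 genes, nothing is read from these counts. Kcnt2 and Kcnc2 were among the 3 lower genes. Kcnt2, a sodium-activated channel, had 22 UMIs in 1cyc fibroblast nuclei and 66 in TN, or 285 and 277 CPM, against 5.37 CPM in 1cyc adipocyte nuclei and 14.8 CPM in TN. Fibroblast nuclei exceeded adipocyte nuclei 53.1-fold in 1cyc (21.9 to 147) and 18.7-fold in TN (11.9 to 30.2). In nuclei of no other class the folds were 218 in 1cyc (52.5 to 1927) and 37.4 in TN (20.1 to 74.9). Its 1cyc over TN ratio in fibroblast nuclei was 1.03 (0.606 to 1.69).

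The genes of this paragraph were named by 15 or more UMIs in the class itself, which favours genes high there. No share over all genes chosen this way is given, so the folds over adipocyte nuclei only describe levels. Kcnq5, an M-type channel, was highest in mural nuclei. It had 54 UMIs in 1cyc and 168 in TN, or 6414 and 5798 CPM, with a UMI in 7 of 7 nuclei and 15 of 16 nuclei. Mural nuclei exceeded adipocyte nuclei 90.8-fold in 1cyc (63.7 to 128) and 60.6-fold in TN (48.8 to 75.2). Of the mural nuclei, 4 in 1cyc and 7 in TN were also adipocyte nuclei, and only 2 in 1cyc and 9 in TN met no other class rule. In nuclei of no other class the folds were 185 in 1cyc (83.2 to 372), on 10 mural UMIs, and 104 in TN (78.5 to 139), on 99. Kcnq1 had 1307 CPM in 1cyc mural nuclei and 725 CPM in TN, and Kcnd3, an A-type channel, 713 and 656 CPM. In mural nuclei of no other class, Kcnd3 had 0 UMIs in 1cyc (fold interval 0 to 1289) and 10 in TN. None of these genes differed between 1cyc and TN mural nuclei beyond counting error. Kcnma1 was highest in skeletal muscle nuclei, with 1424 CPM in 1cyc (34 UMIs) and 1834 CPM in TN (95 UMIs), which is 109-fold (59.3 to 208) and 93.8-fold (63.5 to 141) over adipocyte nuclei. Of the muscle nuclei, 12 in 1cyc and 8 in TN were also adipocyte nuclei, and in nuclei of no other class the folds were 328 in 1cyc (113 to 1152) and 250 in TN (138 to 493). Kcnn2, a small-conductance calcium-activated channel, had 670 CPM in 1cyc muscle nuclei and 599 CPM in TN, and Kcnq5 had 1173 and 1081 CPM. The Kcnma1 ratio of 1cyc over TN in muscle nuclei was 0.776 (0.509 to 1.16) and the Kcnn2 ratio 1.12 (0.572 to 2.11). In endothelial nuclei, Kcnq1 had 192 CPM in 1cyc on 6 UMIs and 78.8 CPM in TN on 15 UMIs. Only 10 endothelial nuclei in 1cyc and 52 in TN met no other class rule, and these held 3 and 6 Kcnq1 UMIs.

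**Figure D5:**
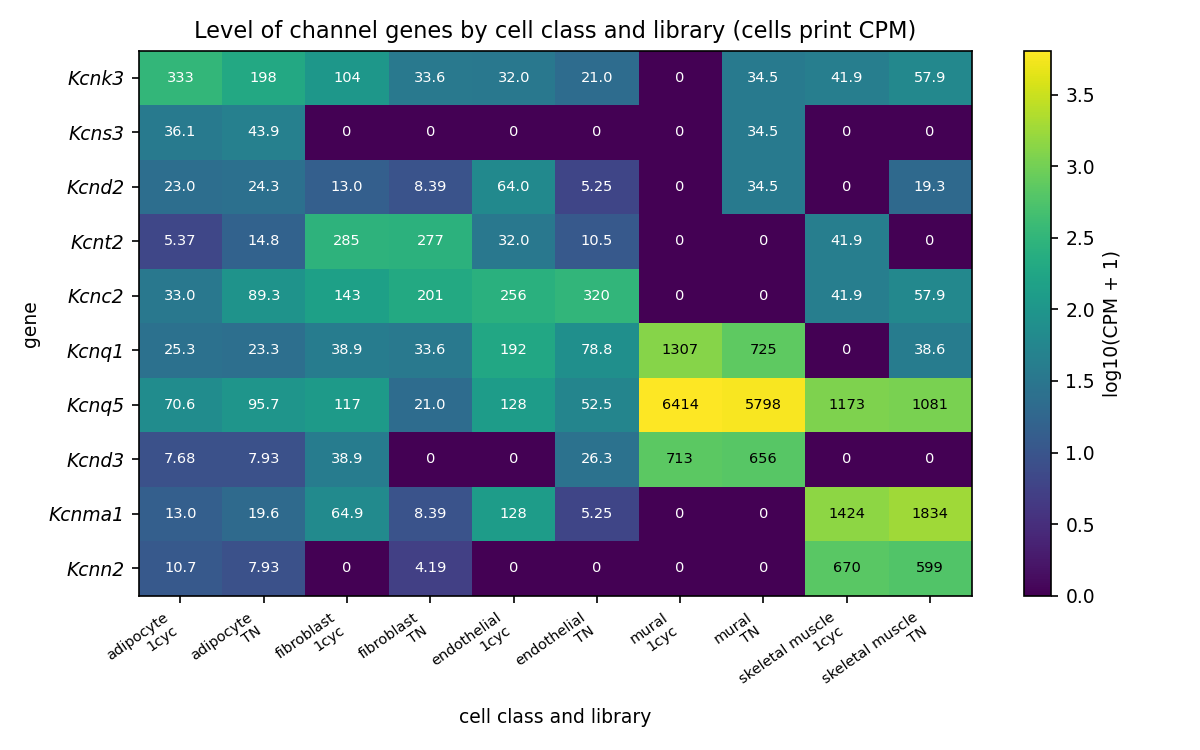
Level of 10 Kcn genes by cell class and library, coloured by log10(CPM + 1) and printed as CPM. Kcnk3 is highest in adipocyte nuclei, Kcnt2 in fibroblast nuclei, Kcnq5 in mural nuclei and Kcnma1 in muscle nuclei, in both libraries; the scale compares 1 gene across classes, since gene lengths differ.

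Promoter windows from RefSeq (GRCm38.p6), 250 bases before to 50 after a start, are shown for 3 genes. Kcnt2 was highest in fibroblast nuclei and Kcnq5 in mural nuclei. Kcns3 had no UMI in fibroblast nuclei, although a difference from adipocyte nuclei was not detectable in 1cyc. RefSeq windows were held for 72 of the 99 genes. Kcns3 and Kcnq5 had 2 windows each and Kcnt2 had 1, and 1 window per gene is shown. The RefSeq start lies 214 bases from the GENCODE gene start for Kcns3, 440 for Kcnt2 and 0 for Kcnq5. The windows were searched on both strands for AGGTCA (a nuclear receptor half-site, in 16.3% of 32851 windows of this length), TATAAA (13.6%) and GGGCGG (a GC box, 35.7%). Capitals mark matches. Kcns3 has 1 GC box, and Kcnt2 and Kcnq5 hold none of the 3 motifs.
Kcns3, chr12:11150793-11151092, minus strand: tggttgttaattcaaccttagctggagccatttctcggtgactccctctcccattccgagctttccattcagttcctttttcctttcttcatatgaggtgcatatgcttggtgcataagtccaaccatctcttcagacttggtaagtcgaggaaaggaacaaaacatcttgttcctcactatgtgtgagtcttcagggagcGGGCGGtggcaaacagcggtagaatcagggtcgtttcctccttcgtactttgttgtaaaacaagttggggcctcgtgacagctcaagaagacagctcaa
Kcnt2, chr1:140245468-140245767, plus strand: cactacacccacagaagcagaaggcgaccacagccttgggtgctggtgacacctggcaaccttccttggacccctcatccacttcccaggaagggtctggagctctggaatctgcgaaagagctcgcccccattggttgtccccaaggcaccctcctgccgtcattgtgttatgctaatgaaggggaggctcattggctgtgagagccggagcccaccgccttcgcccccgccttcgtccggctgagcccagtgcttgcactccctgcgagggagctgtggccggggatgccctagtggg
Kcnq5, chr1:21961893-21962192, minus strand: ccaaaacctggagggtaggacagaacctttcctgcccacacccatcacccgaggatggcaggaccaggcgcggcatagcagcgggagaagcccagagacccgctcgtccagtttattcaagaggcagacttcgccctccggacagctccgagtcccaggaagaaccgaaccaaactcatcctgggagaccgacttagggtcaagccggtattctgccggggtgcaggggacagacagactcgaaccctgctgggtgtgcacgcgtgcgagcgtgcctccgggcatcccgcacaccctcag

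Among 43 potassium handling genes outside the Kcn symbols, 14 reached 50 adipocyte UMIs, 2 were at least 1.5-fold higher in 1cyc, Slc12a7 among them, and 1 was lower, beside 9.68% and 9.62% of all genes. Their median log2 ratio was 0.14, with 11 of 14 above a ratio of 1, beside 0.05 and 3812 of 6852 over all genes. Slc12a7, a potassium-chloride cotransporter, had 229 CPM in 1cyc and 107 CPM in TN (ratio 2.13, 1.78 to 2.56). Abcc9, the sulfonylurea receptor of vascular potassium channels and a pericyte marker, had a ratio of 0.607 and of 0.837 in nuclei of no other class. Among 26 voltage-gated calcium and sodium channel genes, 5 were measured, 1 was higher and 1 lower past the limit, and the median log2 ratio was -0.31 with 4 of 5 below a ratio of 1. Cacna1a, a neuronal-type calcium channel, had 151 CPM in 1cyc and 80.9 CPM in TN (ratio 1.87, 1.51 to 2.33), and Scn7a, a sodium channel of glia, 50.7 and 90.9 CPM (ratio 0.557, 0.413 to 0.744). Scn7a stood at 480 CPM in 1cyc fibroblast nuclei and 356 CPM in TN, and the fibroblast and Schwann lists were lower in 1cyc adipocyte nuclei too; their part in this difference was not tested. The ratios of Cacna1c, Cacnb2 and Cacna2d1 were 0.695, 0.808 and 0.922, with intervals that included 1.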

How the data were processed

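Single-nucleus RNA was profiled in 2 libraries, 1cyc and TN. The deposited matrices hold unnormalized UMI counts, and the matrix header gives Cell Ranger 3.1.0, per the file headers. The submitters' processing notes name Cell Ranger 3 and mm10, and the series' design text says that nuclei were pooled and barcodes filtered. No source used here names the annotation, or says whether intronic reads or strand were used.

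UMIs were summed per class and library and scaled to CPM (Python 3.11.15, numpy 2.4.6, scipy 1.17.1, pandas 2.3.3). Intervals are exact Poisson for CPM, exact conditional binomial for ratios and Clopper-Pearson for shares, all at 95%. Because each condition is 1 library, no test between conditions was made and no p-value was computed. Genes were counted past a limit of 1.5-fold between libraries and of 2-fold between classes. A count of 0 was set against 3 counts. Doublets were not called, and nuclei that met several class rules were left out in an alternative. edgeR 4.0.16 and DESeq2 1.42.0 gave scaling factors only. Positions came from GENCODE M21 on mm10, which held all 99 Kcn identifiers.

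Genes named were those with 50 or more adipocyte UMIs, up to 6 per other class with 15 or more UMIs, and measured genes of the other lists; Kcnrg, Kcnk2 and Kcnip4 are named as nearest to the minimum. Some genes that met this rule are counted in totals but not reported here. Members, lists and strata were chosen with earlier results of these data known. The interval method was checked on simulated counts drawn independently for each gene. These counts held no spread between nuclei, mice or libraries, so the check does not cover such spread.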

Additional observations from a re-analysis of the deposited data

Results flagged for a closer look

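Kcnq5 in fibroblast nuclei had 9 UMIs in 1cyc and 5 in TN, a CPM ratio of 5.57 for 1cyc over TN, while its ratio in adipocyte nuclei was 0.738. The 2 classes lie on opposite sides of 1, which drew attention to the value, and the difference between them was not tested. Up to 4 of the 9 UMIs came from 1 nucleus.

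Barcodes with 20% or more mt- UMIs were left out of every class. In 1cyc these 2275 barcodes held Kcnk3 at 238 CPM (207 to 273, 208 UMIs), and in TN the 84 such barcodes held it at 20.5 CPM (2.48 to 74.1, 2 UMIs). With totals that leave out mt- genes, Kcnk3 stood at 351 CPM in these 1cyc barcodes and at 347 CPM in 1cyc adipocyte nuclei, and at 31.0 CPM in such TN barcodes and 208 CPM in TN adipocyte nuclei. Kcnc2 went the other way in these barcodes, with 25.2 CPM in 1cyc and 195 CPM in TN.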

How the results depend on the processing

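No paired analysis was possible because each condition is 1 pooled library, and no library could be left out. The Kcnk3 ratio lay between 1.57 and 1.86 over 9 alternatives, and Kcnc2 between 0.324 and 0.435. Kcnk3 was past the 1.5-fold limit under each of these 9. The remaining alternatives of the 12 changed only the minimum UMIs per gene, which leaves its ratio as it was. Within strata of adipocyte nuclei in no other class, its ratio was past the limit in some, such as 1.76 under 5% mt- UMIs. In others it was not, such as 1.01 at 5 to 20% mt- UMIs. The number of Kcn genes at least 1.5-fold lower, 1 as reported, was 2 with an mt- limit of 5%, with 5 or more marker UMIs or with nuclei of 1 class only, where Kcnq5 joined Kcnc2. It was also 2 without Nnat or Slc7a10 nuclei, with TMM or median-of-ratios scaling, or with totals without mt- genes, where Kcnma1 joined it. With a minimum of 20 UMIs it was 4. With no minimum beyond 1 UMI in each sum, 14 genes were lower and 10 higher of 46. The number lower in adipocyte than in fibroblast nuclei, 3 as reported, was 5 at a minimum of 20 UMIs and 7 with none, 4 with 5 or more marker UMIs, and 2 at a minimum of 100 UMIs or without Nnat or Slc7a10 nuclei. No share over all genes is given for these alternatives, so none of these counts is set against one. The summed ratio was 0.988 with no mt- limit and 0.934 without Kcnk3. With 5 or more marker UMIs the thinned Kcnk3 share was 14.7% in 1cyc (12.4 to 17.2) and 12.3% in TN (10.7 to 14.0), intervals that overlap, unlike those of the reported shares. It was 20.7% in 1cyc and 16.5% in TN unthinned, and 9.20% and 6.18% thinned to 300 UMIs. No result turned its direction where it was past a limit. The alternatives on Nnat or Slc7a10 nuclei, on 500 or more UMIs per nucleus and on the sum without Kcnk3 or Kcnq1ot1 were chosen after the data were seen. TMM and median-of-ratios scaling each moved every log2 ratio by -0.05. Depth limits the mural, muscle and endothelial classes most, where 1 UMI in 1cyc is worth 119, 41.9 and 32.0 CPM.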

Other observations

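Cib4 lies 42334 bases from Kcnk3 on the opposite strand (chr5:30485583-30545836, mm10). It had 167 CPM in 1cyc adipocyte nuclei and 104 CPM in TN, a ratio of 1.60 (1.31 to 1.95). Of the other genes within 100 kb, Slc35f6 had 11 UMIs in 1cyc and 10 in TN (ratio 1.60, 0.616 to 4.20) and Cenpa had 16 and 10 UMIs (ratio 2.32, 0.991 to 5.73). Gm42765 had 1 UMI in each library, and Dpysl5 1 UMI in 1cyc and 2 in TN. These genes were chosen after the data were seen.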
